A study of Homo sapiens with 12 samples.

Results

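The YAP-TEAD genes described here are 10 of the 58347 genes counted in A375 cells: the targets CCN1, CCN2 and ANKRD1, the feedback genes AMOTL2, LATS2 and AJUBA, the coactivators YAP1 and WWTR1 (TAZ), and the DNA-binding factors TEAD1 and TEAD4. They were chosen by their place in the pathway, with earlier results of these counts known. CCN2 was also selected on a measured value, its drug interaction in these same libraries, so its values are given as a description with no test, and it is left out of the counts of members, which cover the other 9. A375 is an established human melanoma line with mutant BRAF. Cells received the DMSO vehicle, tretinoin (a retinoid that activates the retinoic acid receptors), vemurafenib (an inhibitor of mutant BRAF) or the vemurafenib + tretinoin combination for 8 h, with 3 replicates per group. The labels give 5 µM as the dose of all groups, DMSO too. They do not say whether the combination held 5 µM of each drug, so its comparisons with single drugs may also hold a dose difference. All samples share the line, medium and plating, so each group is a model of this line only, and the treatments were applied in triplicate. The labels do not say whether replicates were separate cultures on separate days, so p-values measure the spread between these libraries.

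YAP and TAZ are coactivators without a DNA-binding domain of their own. In the nucleus they bind TEAD proteins and switch on genes for growth, matrix and adhesion. The Hippo kinases LATS1 and LATS2 phosphorylate YAP and TAZ and hold them in the cytoplasm, and several YAP/TAZ targets, LATS2 and AMOTL2 among them, feed back on the pathway. Because this control acts largely on protein location, mRNA levels of the factors and of their targets are separate measurements. In melanoma, YAP and TAZ are known for a role in tolerance to BRAF inhibitors.

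Totals per library were 13510235 to 21534377 counts, and 16740 genes, all 10 members among them, passed the filter on low counts. Pairs of replicates differed more than counting noise allows in every group (chi-square per degree of freedom of 2.59 to 22.4). Both of the highest values, 19.5 and 22.4, were pairs with tretinoin replicate 1, against at most 9.14 elsewhere, so results that rest on that library are also given without it. As a check of the treatments, all 8 listed ERK output genes fell with vemurafenib (median log2 change -3.76), and 3 of 6 listed retinoid targets rose with tretinoin (median 0.55). The melanocyte markers did not give a pigmented picture. SOX10 was listed at 0 counts in all 12 libraries and TYR had at most 1 count, while MITF (5.62 to 15.3 TPM, reads per transcript length, scaled to a fixed sum), S100B and the dedifferentiation marker AXL (174 to 314 TPM) were expressed. In GENCODE 29, SOX10 shares 2.4% of its exon bases with POLR2F on the opposite strand. The counts used GENCODE 27, whose overlap was not looked up, and the cause of the 0 counts was not tested. Among markers of other cell types, the summed level of lymphoid and myeloid genes was 0.58 to 2.54 TPM and of epithelial genes 1.26 to 4.23 TPM. The endothelial sum was 2.39 to 2.75 TPM in DMSO, 5.82 to 9.3 with tretinoin, 0.156 to 0.468 with vemurafenib and 1.51 to 2.07 with the combination. CDH5 took most of it in DMSO, with tretinoin and with the combination, but with vemurafenib CDH5 averaged 0.075 TPM against 0.223 TPM for PECAM1. Its part in the results below was not tested.

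In DMSO cells the members spanned a wide range of levels per length. CCN1 stood highest at 365 ± 57.4 TPM (SD, n = 3), followed by WWTR1 at 203 ± 5.35, CCN2 at 128 ± 8.57 and TEAD4 at 125 ± 6.43 TPM. AMOTL2 (106 ± 13.3), AJUBA (58.7 ± 5.96), ANKRD1 (45.1 ± 4.15) and YAP1 (37 ± 3.09) came next, and LATS2 (22.5 ± 2.32) and TEAD1 (20.3 ± 3.13) were lowest. The replicate ranges of CCN2 and TEAD4 overlapped, as did those of LATS2 and TEAD1, so neither pair can be ordered. All other neighbours in this order had separate ranges in DMSO. In the treated groups the order changed at the top. With tretinoin the ranges of WWTR1 (207 ± 32.3 TPM) and CCN1 (198 ± 13.4) overlapped. With vemurafenib WWTR1 (173 ± 7.32) lay above CCN1 (126 ± 14.9). WWTR1 also led with the combination, at 156 ± 8.81 TPM, and only there CCN2 (112 ± 11.5) lay above CCN1 (64.4 ± 3.44).

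**Figure D1:**
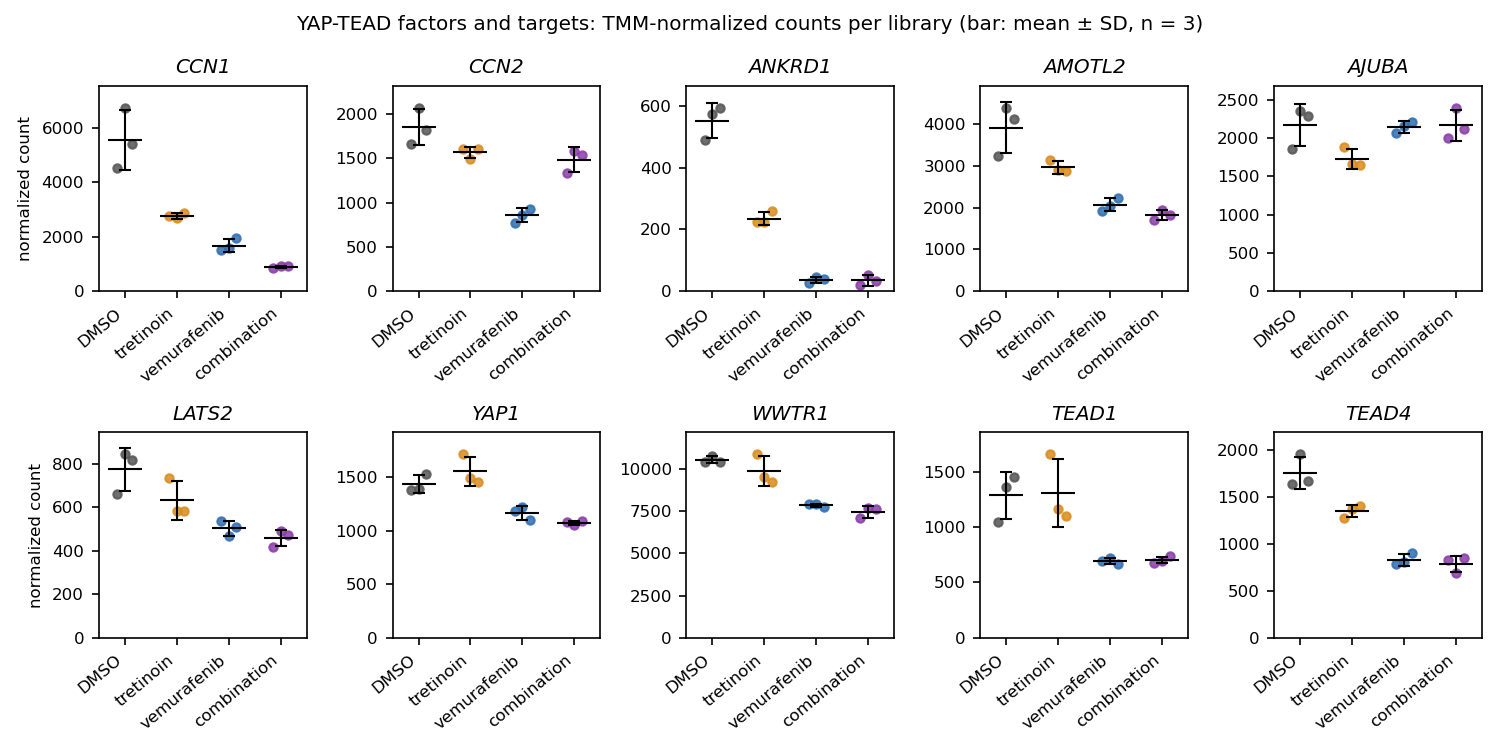
Each panel plots the TMM-normalized count (vertical axis, from 0) of a member in every library, by treatment group; points are replicates and the bar with caps is the mean ± SD (n = 3). CCN1 steps down from 5557 in DMSO to 902 with the combination, whereas CCN2 is lowest with vemurafenib alone (857) and stands at 1487 with the combination.

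Vemurafenib lowered nearly all of these genes. Of the 9 tested members, 8 fell relative to DMSO and AJUBA did not pass the test. Across all genes tested, 26.3% fell and 26.4% rose with vemurafenib, and the median log2 change was -0.89 for the 9 members against 0.02 for all genes. With tretinoin, 5 of the 9 fell (CCN1, ANKRD1, AMOTL2, AJUBA and TEAD4), beside 2.20% of all genes that fell and 3.48% that rose, with medians of -0.33 and 0.01. The combination lowered the same 8 members as vemurafenib relative to DMSO, where 26.5% of all genes fell and 27.1% rose, with a median of -0.87 against 0.025 over all genes. These 3 comparisons share the DMSO libraries and are not independent of each other. In bulk RNA, fewer cells that express a gene and less RNA per cell cannot be told apart.

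**Figure D2:**
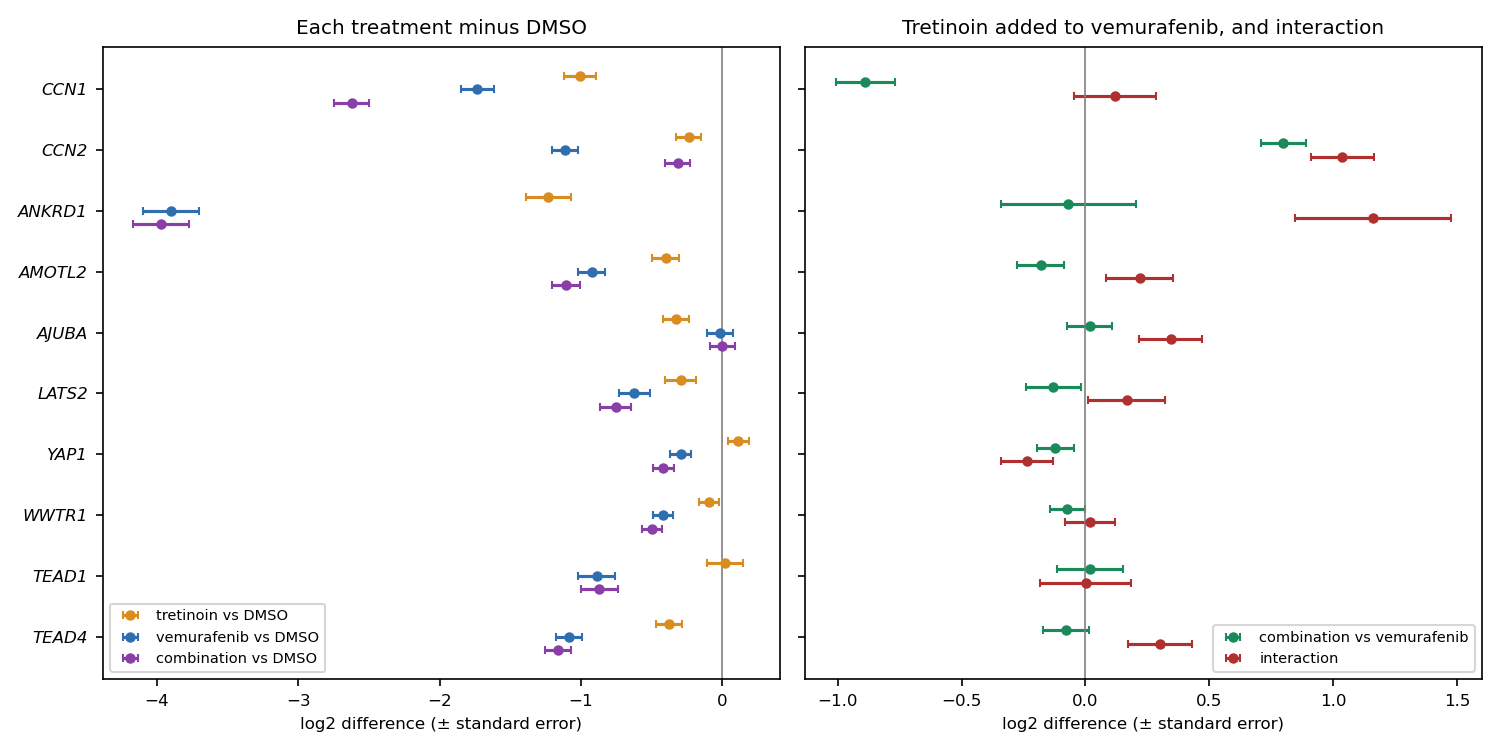
Points are log2 differences from the edgeR fit and bars are standard errors; the left panel sets each treatment against DMSO, and the right panel sets the combination against vemurafenib and shows the interaction. ANKRD1 lies near -3.9 in both vemurafenib arms, and CCN1 (-0.89) and CCN2 (0.80) lie on opposite sides of 0 when tretinoin is added to vemurafenib.

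CCN1 (ENSG00000142871.16, CYR61 in older annotation, chr1:85580761-85583962, plus strand, GRCh38) encodes a secreted matricellular protein and is a standard readout of YAP/TAZ activity. Its normalized counts were 4515, 6735 and 5423 in DMSO, 2750, 2672 and 2871 with tretinoin, 1499, 1574 and 1944 with vemurafenib, and 857, 927 and 922 with the combination. The groups were fully separated and stepped down in that order. In edgeR's quasi-likelihood test, CCN1 fell by 1.01 ± 0.12 on the log2 scale with tretinoin (SE; adjusted p = 3.1e-05), by 1.73 ± 0.12 with vemurafenib (adjusted p = 1.7e-09) and by 2.62 ± 0.12 with the combination (adjusted p = 1.1e-11), which left 49.8%, 30.1% and 16.2% of the DMSO level. Of the 9 tested members, CCN1 alone passed the test between the combination and vemurafenib, a fall of 0.89 ± 0.12 (adjusted p = 0.00011), beside 2.20% of all genes that fell and 2.27% that rose in that comparison. Its interaction, the difference between the tretinoin effect with and without vemurafenib, was 0.12 ± 0.17 (adjusted p = 0.76).

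CCN2 (ENSG00000118523.5, CTGF in older annotation, chr6:131948176-131951373, minus strand) encodes connective tissue growth factor, the nearest relative of CCN1 among these genes. It had normalized counts of 1668, 2071 and 1824 in DMSO, 1610, 1497 and 1604 with tretinoin, 776, 863 and 931 with vemurafenib, and 1330, 1589 and 1543 with the combination. The vemurafenib libraries were the lowest 3 of the 12, and the combination libraries overlapped those given tretinoin alone. Relative to DMSO, its log2 difference was -0.24 ± 0.09 with tretinoin, -1.11 ± 0.09 with vemurafenib and -0.32 ± 0.09 with both, and 0.80 ± 0.09 for the combination relative to vemurafenib. The interaction, one of the values that selected the gene, was 1.04 ± 0.13. Normalization by total counts alone changed the vemurafenib and combination differences from DMSO to -0.92 and -0.15 for CCN2.

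Within a library, where no scaling enters, the count of CCN1 divided by that of CCN2 was 2.98 ± 0.27 in DMSO (SD, n = 3), 1.76 ± 0.044 with tretinoin, 1.95 ± 0.14 with vemurafenib and 0.608 ± 0.032 with the combination. CCN1 thus had more counts than CCN2 in all 9 libraries of the first 3 groups and fewer in the 3 combination libraries (0.644, 0.583 and 0.597). This ratio holds the value that selected CCN2 and is given without a test.

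**Figure D3:**
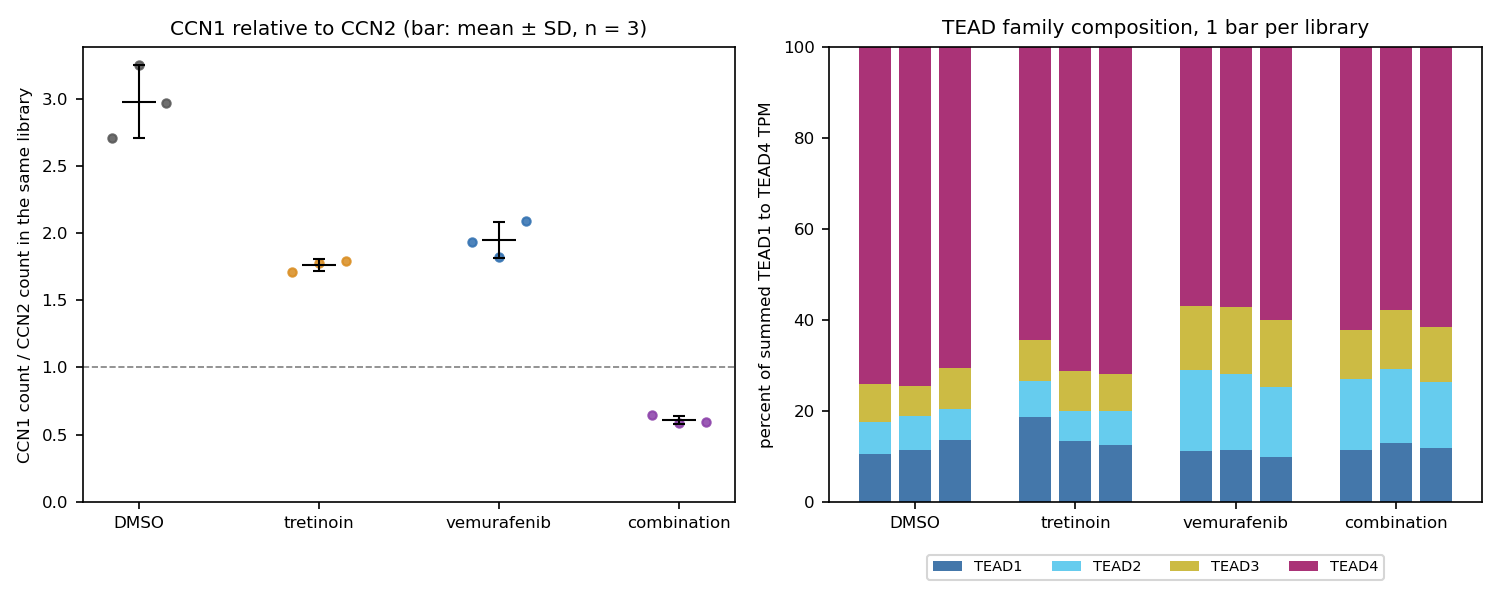
The left panel plots the CCN1 count divided by the CCN2 count in each library (bar: mean ± SD, n = 3; dashed line at 1), and the right panel stacks each TEAD gene's percent of the summed TEAD1 to TEAD4 TPM, with 1 bar per library. The ratio is 1.71 or more in every library except those of the combination, which lie under 1, and TEAD4 takes 73.0% of the TEAD sum in DMSO against 58.0% with vemurafenib.

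ANKRD1 (ENSG00000148677.6, chr10:90912096-90921276, minus strand) encodes an ankyrin repeat cofactor known from heart muscle and is a widely used YAP/TAZ target. Its normalized counts were 488, 574 and 593 in DMSO and 224, 223 and 258 with tretinoin. They dropped to 26.9, 44.8 and 38.7 with vemurafenib and 19.7, 52.4 and 31.6 with the combination. Every treated library lay below every DMSO library, and the vemurafenib and combination ranges overlapped. The fall of 1.23 ± 0.16 with tretinoin (adjusted p = 0.0001) left 42.6% of the DMSO level, and with vemurafenib it fell by 3.90 ± 0.20 (adjusted p = 4.1e-11), to 6.7%. The combination stood at -3.97 ± 0.20 relative to DMSO (adjusted p = 2.5e-11) and at -0.07 ± 0.27 relative to vemurafenib (adjusted p = 0.96). The interaction of ANKRD1, 1.16 ± 0.32, was as large as that of CCN2 but rested on raw counts as low as 20 and missed the threshold (adjusted p = 0.11). It passed without combination replicate 1 (1.41, adjusted p = 0.037), in DESeq2's Wald test (adjusted p = 0.0087) and without the low-count filter (adjusted p = 0.00029).

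The promoters of CCN2 and ANKRD1 are shown because both genes are read out as direct TEAD targets. In RefSeq windows of 300 bases that start 250 bases before a transcription start (GRCh38.p14), 7 of the 10 members had an entry. The TEAD core GGAATG, searched on both strands, occurs in 14.0% of all 35116 windows and at least 3 times in 0.128%. CCN2 holds 3 copies, which begin at positions -169, -104 and -95 from the start, and ANKRD1 holds 2, at -220 and -128. The 250 bases upstream of each start read as follows, 5′ to 3′ on the gene's strand, with TEAD cores in capitals.
CCN2, chr6:131951373-131951622, minus strand: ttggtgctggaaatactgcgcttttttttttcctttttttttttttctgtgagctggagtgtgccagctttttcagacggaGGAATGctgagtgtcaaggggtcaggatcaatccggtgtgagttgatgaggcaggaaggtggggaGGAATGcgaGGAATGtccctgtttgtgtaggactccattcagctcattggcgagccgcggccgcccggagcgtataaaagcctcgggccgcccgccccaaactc
ANKRD1, chr10:90921088-90921337, minus strand: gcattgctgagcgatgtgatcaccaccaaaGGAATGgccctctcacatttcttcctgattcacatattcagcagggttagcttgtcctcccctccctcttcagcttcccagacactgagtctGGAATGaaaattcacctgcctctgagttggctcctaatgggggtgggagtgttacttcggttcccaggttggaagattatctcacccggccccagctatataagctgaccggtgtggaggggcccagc

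ANKRD1 also holds the AP-1 letters TGANTCA, which occur in 7.71% of all windows, at -195 and apart from both TEAD cores. The CArG box of the factor SRF (1.29% of windows) was in no member window, and the retinoid half-site AGGTCA (13.8%) was in that of WWTR1 only, at -85 from its second start. The TEAD core also occurred in windows of AMOTL2, AJUBA, LATS2 and YAP1, so 6 of the 7 members with an entry hold it. Some members have more than 1 window. By window, the unit of the 14.0% share, 6 of 10 hold it. In LATS2 it begins at position 10, after the start. These are matches of letters and not measured binding sites.

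AMOTL2 (ENSG00000114019.14, chr3:134355874-134375479, minus strand) encodes an angiomotin that binds YAP and keeps it from the nucleus. Its normalized counts were 3237, 4390 and 4131 in DMSO, 3151, 2896 and 2871 with tretinoin, 1925, 2038 and 2233 with vemurafenib, and 1708, 1934 and 1820 with the combination. All DMSO libraries lay above all treated ones, by a small margin over tretinoin replicate 1. It fell by 0.92 ± 0.10 with vemurafenib (log2, SE; adjusted p = 3.6e-07) and by 1.10 ± 0.10 with the combination (adjusted p = 3.8e-08), and was -0.18 ± 0.10 between the combination and vemurafenib (adjusted p = 0.43). The tretinoin fall of 0.40 ± 0.10 (adjusted p = 0.02) did not pass without DMSO replicate 2 (adjusted p = 0.14), DMSO replicate 3 (0.075) or tretinoin replicate 2 (0.06). AMOTL2 also missed with only the tretinoin and DMSO libraries in the fit (adjusted p = 0.1). Its second RefSeq start has a TEAD core on the opposite strand, printed as CATTCC and beginning at -69.
AMOTL2, chr3:134374448-134374697, minus strand: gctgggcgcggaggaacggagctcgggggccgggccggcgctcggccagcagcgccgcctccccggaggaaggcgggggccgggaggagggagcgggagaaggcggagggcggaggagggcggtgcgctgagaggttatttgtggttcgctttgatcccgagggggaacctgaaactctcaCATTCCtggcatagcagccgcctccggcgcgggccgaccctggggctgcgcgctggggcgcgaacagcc

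LATS2 (ENSG00000150457.8, chr13:20973032-21061547, minus strand) encodes a kinase that phosphorylates YAP and TAZ. It was counted at 662, 844 and 820 in DMSO, 737, 581 and 582 with tretinoin, 535, 467 and 508 with vemurafenib and 416, 489 and 472 with the combination. The DMSO and tretinoin ranges overlapped, through tretinoin replicate 1, while the vemurafenib and combination libraries lay below both. LATS2 fell by 0.62 ± 0.11 with vemurafenib (adjusted p = 0.00012) and by 0.75 ± 0.11 with the combination (adjusted p = 1.6e-05). With tretinoin the value of -0.30 ± 0.11 did not pass (adjusted p = 0.11), and without tretinoin replicate 1 it was -0.42 and did (adjusted p = 0.013).

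AJUBA (ENSG00000129474.15, chr14:22971174-22982642, minus strand), a LIM-domain protein that restrains the LATS kinases, did not share the vemurafenib pattern. Its normalized counts were 1857, 2356 and 2293 in DMSO, 1880, 1657 and 1650 with tretinoin, 2064, 2155 and 2212 with vemurafenib and 1995, 2394 and 2113 with the combination. All vemurafenib and combination libraries lay within or just above the DMSO range, and the tretinoin libraries at or below its lower end. The log2 difference from DMSO was -0.02 ± 0.09 with vemurafenib (adjusted p = 0.89), a direction that turned under normalization by total counts (0.18, adjusted p = 0.1), and 0.00 ± 0.09 with the combination (adjusted p = 1). With tretinoin alone AJUBA fell by 0.33 ± 0.09 (adjusted p = 0.043). That call did not pass without DMSO replicate 2 (adjusted p = 0.22), DMSO replicate 3 (0.12), tretinoin replicate 2 (0.1) or tretinoin replicate 3 (0.078), nor with total counts (0.12). AJUBA also missed with the replicate block, and with only the tretinoin and DMSO libraries in the fit (adjusted p = 0.15).

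Relative to tretinoin alone, the combination lowered 8 of the 9 tested members and raised AJUBA, beside 25.0% of all genes that fell and 24.1% that rose, with medians of -0.71 for the members and 0.02 for all genes. AJUBA rose by 0.33 ± 0.09 on the log2 scale (adjusted p = 0.0063), and this did not pass without combination replicate 2 (0.24, adjusted p = 0.053). The falls ran from 0.40 ± 0.07 for WWTR1 (adjusted p = 0.00013) to 2.74 ± 0.21 for ANKRD1 (adjusted p = 8.3e-09). This comparison shares the combination libraries with the others.

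The coactivators fell with vemurafenib by less than a log2 unit. YAP1 (ENSG00000137693.13, chr11:102110461-102233423, plus strand) had normalized counts of 1386, 1392 and 1534 in DMSO, 1715, 1494 and 1460 with tretinoin, 1187, 1224 and 1099 with vemurafenib and 1087, 1052 and 1088 with the combination. The vemurafenib and combination libraries lay below all others, and the DMSO and tretinoin ranges overlapped. YAP1 fell by 0.30 ± 0.07 with vemurafenib (adjusted p = 0.0029), which did not pass with total counts (-0.10, adjusted p = 0.32), and by 0.42 ± 0.07 with the combination (adjusted p = 0.00014). With tretinoin it was 0.11 ± 0.07 (adjusted p = 0.39).

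WWTR1 (ENSG00000018408.14, chr3:149517235-149736714, minus strand), which encodes TAZ, had normalized counts of 10460, 10790 and 10410 in DMSO, 10880, 9570 and 9237 with tretinoin, 7912, 7931 and 7757 with vemurafenib and 7087, 7720 and 7615 with the combination. Here too the libraries given vemurafenib lay apart from the others. It fell by 0.42 ± 0.07 with vemurafenib (adjusted p = 8e-05) and by 0.50 ± 0.07 with the combination (adjusted p = 1.4e-05), and was -0.09 ± 0.07 with tretinoin (adjusted p = 0.46). Per length, WWTR1 exceeded YAP1 in every library, with a TPM ratio of 5.51 ± 0.38 in DMSO, 4.76 ± 0.031 with tretinoin, 5.04 ± 0.22 with vemurafenib and 5.20 ± 0.31 with the combination. WWTR1-AS1 shares 9.45% of WWTR1 exon bases and AP000942.2 shares 9.97% of those of YAP1, both on the opposite strand, and fragments there were assigned to neither gene in any group.

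TEAD4 and TEAD1 bind the DNA to which YAP and TAZ are recruited. TEAD4 (ENSG00000197905.8, chr12:2959330-3040673, plus strand) had normalized counts of 1644, 1955 and 1674 in DMSO, 1276, 1378 and 1400 with tretinoin, 780, 802 and 907 with vemurafenib and 824, 685 and 847 with the combination. DMSO, tretinoin and the vemurafenib arms formed separate levels. TEAD4 fell by 1.08 ± 0.09 with vemurafenib (adjusted p = 2.8e-08), by 1.16 ± 0.09 with the combination (adjusted p = 1e-08) and by 0.38 ± 0.09 with tretinoin (adjusted p = 0.019). The tretinoin fall did not pass without DMSO replicate 2 (adjusted p = 0.14) or with only the tretinoin and DMSO libraries in the fit (0.07).

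TEAD1 (ENSG00000187079.16, chr11:12674591-12944483, plus strand) had normalized counts of 1052, 1362 and 1454 in DMSO, 1661, 1167 and 1105 with tretinoin, 696, 721 and 672 with vemurafenib and 680, 698 and 738 with the combination. Libraries without vemurafenib were scattered, with tretinoin replicate 1 the highest, and all libraries with vemurafenib lay below them. It fell by 0.89 ± 0.13 with vemurafenib (adjusted p = 2.1e-05) and by 0.87 ± 0.13 with the combination (adjusted p = 2.4e-05). With tretinoin the value was 0.02 ± 0.13 (adjusted p = 0.95), and -0.19 without tretinoin replicate 1 (adjusted p = 0.29).

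With vemurafenib the other TEAD genes did not fall with TEAD1 and TEAD4. TEAD2 rose by 0.47 ± 0.10 with vemurafenib (log2, SE; adjusted p = 0.00093) and TEAD3 was 0.11 ± 0.11 (adjusted p = 0.4), or 0.30 with total counts, where it passed (adjusted p = 0.03). With the combination relative to DMSO, TEAD2 did not pass (0.225 ± 0.103, adjusted p = 0.075) and TEAD3 fell (-0.317 ± 0.108, adjusted p = 0.02). TEAD3 also fell in the combination relative to vemurafenib (-0.428 ± 0.106, adjusted p = 0.024). TEAD4 accounted for 73.0% ± 2.2 of the summed TEAD TPM in DMSO (SD, n = 3), 69.2% ± 4.1 with tretinoin, 58.0% ± 1.8 with vemurafenib and 60.5% ± 2.4 with the combination. TEAD2 went from 7.14% ± 0.28 in DMSO to 16.7% ± 1.2 with vemurafenib and 15.5% ± 0.93 with the combination. Of the vestigial-like genes, whose proteins bind TEADs as YAP does, VGLL3 rose by 2.49 ± 0.18 with vemurafenib (adjusted p = 4e-09). VGLL3 went from a low level of 0.625 TPM in DMSO to 4.04 TPM. VGLL4 rose by 0.31 ± 0.10 (adjusted p = 0.012), which did not pass without DMSO replicate 2 (adjusted p = 0.055). VGLL1 and VGLL2 did not pass the low-count filter.

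Over the interaction, 0 of the 9 tested members passed in edgeR's quasi-likelihood test, beside 0.382% of all genes above and 0.424% below 0. DESeq2 passed 1, ANKRD1. At an unadjusted p under 0.05 there were 4: ANKRD1, AJUBA (0.34 ± 0.13), TEAD4 (0.30 ± 0.13) and YAP1 (-0.23 ± 0.11). The share of all genes at that unadjusted threshold was not counted. The shares above are for adjusted p and cannot be set beside these 4. Since the interaction is the contrast that selected CCN2, nothing is read from these counts.

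Of the other genes of a published YAP/TAZ target signature, 17 were listed and all were tested. With vemurafenib 12 fell and 2 rose, with a median log2 change of -0.47, where 26.3% of all genes fell and 26.4% rose. The largest falls were in IGFBP3, an IGF-binding protein (-3.83 ± 0.09, adjusted p = 1.3e-15), F3, tissue factor (-3.06 ± 0.23, adjusted p = 7.7e-09), and NT5E, the ectonucleotidase CD73 (-1.94 ± 0.08, adjusted p = 2.2e-12). ARHGEF17, a guanine nucleotide exchange factor, rose by 1.07 ± 0.11 (adjusted p = 3.4e-07). RBMS3, an RNA-binding protein, rose by 0.40 ± 0.12 (adjusted p = 0.012), but not without vemurafenib replicate 1 (0.054) or replicate 2 (0.071).

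With tretinoin 3 of the 17 fell, with a median of -0.04, beside 2.20% of all genes that fell and 3.48% that rose. The 3 were F3, the kinase NUAK2 and the secreted protein FJX1. F3 was at -0.67 ± 0.19 (adjusted p = 0.046) and NUAK2 at -0.45 ± 0.12 (adjusted p = 0.038), and neither passed when DMSO replicate 2, DMSO replicate 3 or tretinoin replicate 2 was left out (adjusted p up to 0.17 for F3 and 0.18 for NUAK2); F3 also failed without tretinoin replicate 3. FJX1 was at -0.34 ± 0.07 (adjusted p = 0.0054). It passed with any library left out but missed with only the tretinoin and DMSO libraries in the fit (adjusted p = 0.074).

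Of 25 listed upstream Hippo genes, 11 fell and 5 rose with vemurafenib, with a median of -0.11, beside the 26.3% of all genes that fell and the 26.4% that rose. SAV1, the scaffold of the MST kinases, fell by 1.98 ± 0.11 (adjusted p = 7.7e-11), AMOTL1, a relative of AMOTL2, by 1.46 ± 0.09 (adjusted p = 5.2e-10) and WWC1, the scaffold KIBRA, by 1.34 ± 0.12 (adjusted p = 7.7e-08). The atypical cadherin FAT4 rose by 1.31 ± 0.20 (adjusted p = 2.8e-05), AMOT, the founding angiomotin, by 1.24 ± 0.11 (adjusted p = 7.6e-08) and the kinase TAOK3 by 0.66 ± 0.09 (adjusted p = 5.6e-06). FAT4 had a low level, 0.673 TPM in DMSO and 1.925 TPM with vemurafenib. Among close relatives, AMOT and AMOTL1 thus went in opposite directions, and LATS1 was -0.16 ± 0.10 (adjusted p = 0.19; 0.03 with total counts) where LATS2 fell. LIMD1, a relative of AJUBA, rose by 0.46 ± 0.11 (adjusted p = 0.0014), and WTIP, another, fell by 0.78 ± 0.13 (adjusted p = 0.0001).

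With tretinoin 2 of the 25 Hippo genes fell and 2 rose, with a median of 0.00, where 2.20% of all genes fell and 3.48% rose. SAV1 fell by 0.53 ± 0.10 (adjusted p = 0.0037), whichever library was left out, but missed with only the tretinoin and DMSO libraries in the fit (adjusted p = 0.055). WTIP fell by 0.58 ± 0.13 (adjusted p = 0.016), but not without DMSO replicate 2 (0.11) or tretinoin replicate 2 (0.057). AMOT rose by 0.49 ± 0.12 (adjusted p = 0.021), but not without any 1 of the DMSO libraries or tretinoin replicate 1 (adjusted p up to 0.087). The kinase MAP4K4 rose by 0.28 ± 0.07 (adjusted p = 0.033), but not without DMSO replicate 1, DMSO replicate 2 or tretinoin replicate 2 (adjusted p up to 0.13).

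**Figure D4:**
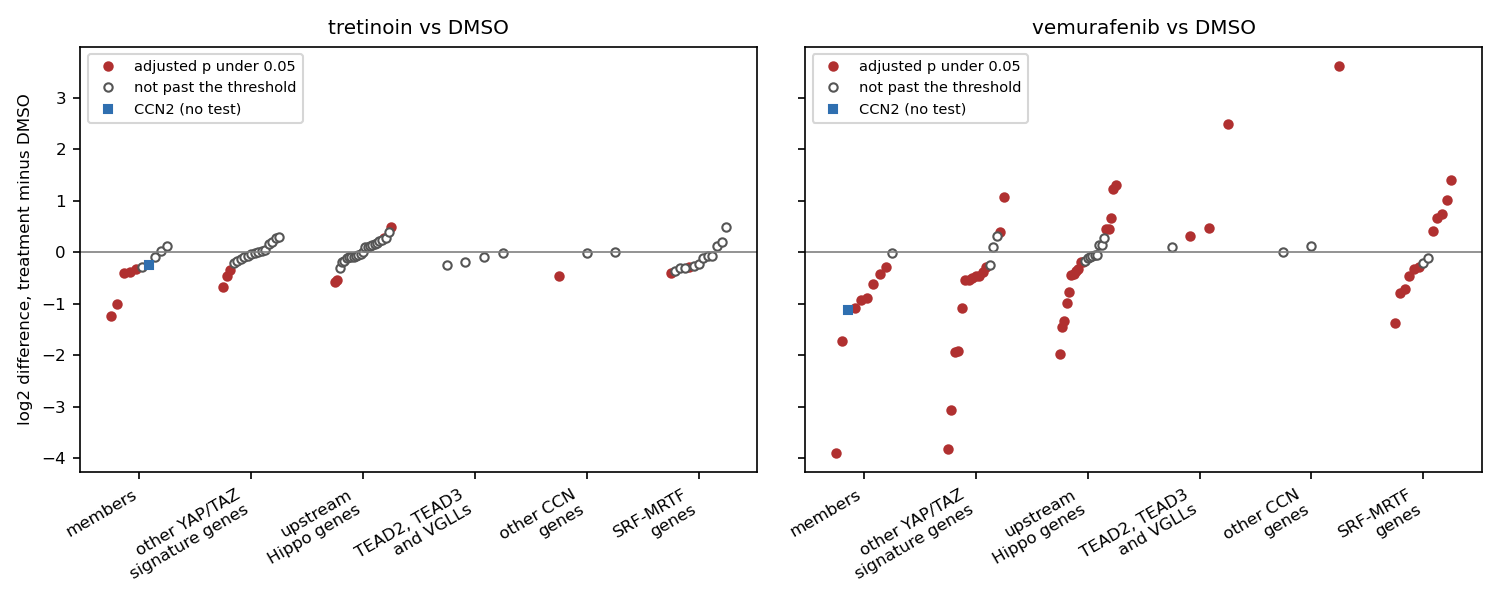
Each point is a gene, placed by its log2 difference from DMSO (vertical axis) in the tretinoin panel and the vemurafenib panel and grouped by list; filled points passed the test, open points did not, and the square is CCN2, which was not tested. With vemurafenib the members lie at or below 0, while the Hippo and SRF-MRTF genes lie on both sides, and with tretinoin most points are open.

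The remaining CCN genes differed among themselves. CCN5, which lacks the C-terminal domain of its relatives, rose by 3.62 ± 0.33 with vemurafenib (adjusted p = 8e-08) from a low level of 0.153 TPM in DMSO to 2.20 TPM. With the combination it reached 4.82 TPM. CCN3 was 0.01 ± 0.11 with vemurafenib (adjusted p = 0.92) and fell by 0.46 ± 0.11 with tretinoin (adjusted p = 0.021), though not without DMSO replicate 3 (0.097) or tretinoin replicate 2 (0.068). It also fell with the combination, by 0.68 ± 0.11 relative to DMSO (adjusted p = 5.9e-05) and by 0.69 ± 0.11 relative to vemurafenib (adjusted p = 0.0006), and both falls held in all alternatives. CCN6 was 0.13 ± 0.33 with vemurafenib (adjusted p = 0.76), and CCN4 did not pass the low-count filter.

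The genes most like CCN2 and CCN1 over the 12 libraries are given as a description, by Pearson's r of log2 CPM (counts scaled to library size). The libraries fall into 4 treatment groups, so r follows the group means. For CCN2 these were RHOB (0.936), HSPA6 (0.928), DCPS (0.927), NR2F2 (0.925) and RIPK4 (0.921). RHOB, a small GTPase, had normalized counts of 3004 ± 163 in DMSO, 3134 ± 240 with tretinoin, 1887 ± 82.6 with vemurafenib and 2943 ± 108 with the combination, so it was low with vemurafenib alone as CCN2 was. For CCN1 they were ZFP42 (0.988), SERTAD4 (0.981), THBS1 (0.979), CUL4A (0.979) and PIK3CD (0.979). THBS1, the matricellular protein thrombospondin-1, went from 60710 ± 9900 in DMSO to 37110 ± 5790, 23780 ± 1140 and 14350 ± 1890 with tretinoin, vemurafenib and the combination. Against CCN1, r was 0.971 for AMOTL2, 0.944 for TEAD4, 0.93 for ANKRD1, 0.92 for LATS2 and 0.911 for WWTR1. It was 0.812 for TEAD1, 0.771 for YAP1, 0.488 for CCN2 and -0.101 for AJUBA.

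Normalization mattered for the balance of calls. With total counts alone in place of TMM, the median log2 change over all genes moved by 0.19 in the vemurafenib comparison with DMSO, 0.16 in that of the combination, 0.07 in that of tretinoin and -0.10 in the interaction. Among calls over all genes, the share that rose went from 50.1% to 71.4% with vemurafenib, from 50.5% to 68.2% with the combination relative to DMSO, from 61.3% to 81.3% with tretinoin, from 49.0% to 60.7% for the combination relative to tretinoin, and from 47.4% to 21.4% for the interaction. The 8 members called with vemurafenib were 7 under that scaling, without YAP1, and the 8 called with the combination relative to DMSO stayed at 8.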

How the data were processed

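RNA-seq of 12 A375 libraries was analysed. Per the labels and the study's methods, the authors made poly(A)-selected, strand-specific libraries, aligned paired reads with STAR 2.5.3a to GRCh38.p10, and deposited raw counts of fragments per GENCODE 27 gene, counted over the union of exons with strand ignored. A fragment over exons of more than 1 gene was assigned to none. Such overlaps cover 8.34% of the exon bases of CCN2 and 3.12% of those of AMOTL2, with AL133346.1 and the pseudogene RPL39P5, and are given in the results for YAP1 and WWTR1. AJUBA shares 0.836%. In blastn 2.17.0 (98% identity over 150 bases as the minimum), transcripts of AMOTL2, CCN2, WWTR1 and YAP1 matched those same genes, and no other member matched another gene's transcript.

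Positions came from GENCODE 29, which holds 58084 of the 58347 genes. A symbol was found for 41836. Counts were filtered by group with filterByExpr, scaled by TMM and fitted with edgeR 4.0.16 (R 4.3.3; glmQLFit and glmQLFTest), with a term per group and all 12 libraries in the fit. The Benjamini-Hochberg adjustment ran over all 16740 genes, with a threshold of 0.05. The fit was tested on simulated data. Normalized counts are TMM-scaled, and TPM divides counts by exon length. Log2 CPM used a prior count of 2. Totals were 13510235 to 21534377 counts. Replicates differed beyond counting noise, so the standard errors reflect their spread as well as depth. ANKRD1, at 20 counts in its lowest library, had the largest standard error of the members.

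Genes were named by rule: every member in every comparison; the 3 largest rises and falls among called genes of each pathway list with vemurafenib and with tretinoin, and up to 3 of its interaction calls; relatives in the CCN, TEAD, VGLL, AMOT, LATS and AJUBA families; and the 5 genes most like CCN1 and CCN2. The members and lists were chosen with earlier results of these data known. Alternatives were DESeq2 1.42.0 (Wald test), DESeq2 size factors, total counts, no filter, at least 10 counts in every library, only the groups compared, a replicate block, and each replicate left out. Promoter windows came from RefSeq. Python 3.11.15, numpy 2.4.6 and pandas 2.3.3 were used for the other steps.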

Additional observations from a re-analysis of the deposited data

Results flagged for a closer look

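Among the listed genes, CCN2 apart, the effect of tretinoin differed with and without vemurafenib for 4 in edgeR's quasi-likelihood test of the interaction. They were 2 of the 17 signature genes, 1 of the 25 Hippo genes and 1 of the 2 endothelial markers. In the other lists 0 passed: the 9 members, 13 SRF-MRTF, 8 ERK output, 6 retinoid, 4 TEAD and vestigial-like, and 3 CCN genes tested. Nor did any tested melanocyte, dedifferentiation, lymphoid and myeloid or epithelial marker. The 4 differences that passed were all above 0, where 0.382% of all genes passed above and 0.424% below 0. The largest was in CDH5, the endothelial cadherin, at 2.884 ± 0.446 (log2, SE; adjusted p = 0.0055). Its normalized counts were 81.6 ± 9.54 in DMSO, 240.1 ± 39.6 with tretinoin, 2.46 ± 1.33 with vemurafenib and 56.3 ± 10.7 with the combination (SD, n = 3), so the value rests on few counts with vemurafenib. It passed with any library left out (2.585 to 3.259, adjusted p up to 0.033). IGFBP3 had an interaction of 0.69 ± 0.11 (adjusted p = 0.0057). Its normalized counts were 9638 ± 943 in DMSO and 9032 ± 201 with tretinoin, against 678 ± 50.0 with vemurafenib and 1025 ± 30.6 with the combination. It passed with any library left out (adjusted p up to 0.028).

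FJX1 had an interaction of 0.438 ± 0.099 (adjusted p = 0.046), with 1948 ± 66.5 normalized counts in DMSO, 1535 ± 109 with tretinoin, 514 ± 11.0 with vemurafenib and 549 ± 25.0 with the combination. It missed the threshold in 10 of 12 fits with a library left out (0.397 to 0.496, adjusted p up to 0.16); it passed only without tretinoin replicate 1 or 3. SAV1 had an interaction of 0.674 ± 0.147 (adjusted p = 0.04), with 1901 ± 372, 1312 ± 15.6, 483 ± 6.81 and 533 ± 33.7 in the same order. It missed in 9 of 12 such fits (0.515 to 0.788, adjusted p up to 0.12) and passed only without the first DMSO library or without tretinoin replicate 1 or 3. FJX1 and SAV1 also missed with total counts (0.334, adjusted p = 0.097, and 0.565, adjusted p = 0.06) and with the replicate block (0.439, adjusted p = 0.089, and 0.668, adjusted p = 0.07). The cause of these differences was not tested.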

How the results depend on the processing

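Of 747 refits of the changes of members other than CCN2, 688 kept their direction and their side of the threshold. The called falls with vemurafenib held in every setting except YAP1 with total counts, and those with the combination relative to DMSO held in all. The 5 members called with tretinoin became 2 with only the groups compared, 4 with the replicate block or total counts, and 2 to 6 with 1 replicate left out. For the interaction, 1 member was called by DESeq2 and 1 without a filter, and 0 to 1 with 1 replicate left out. The cause was not tested.

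Values near 0 changed sign. For AJUBA, the combination relative to DMSO was 0.048 with at least 10 counts, 0.025 with only the groups compared, 0.001 with the replicate block, 0.165 with total counts and -0.106 to 0.063 with a replicate left out. Vemurafenib was 0.028 with at least 10 counts, 0.180 with total counts and -0.121 to 0.045 with a replicate left out. The combination relative to vemurafenib was -0.015 with total counts and -0.062 to 0.072 with a replicate left out. With total counts, CCN2 was 0.012 for the combination relative to tretinoin, TEAD1 was -0.014 for the combination relative to vemurafenib and -0.113 for the interaction (-0.005 with at least 10 counts), the WWTR1 interaction was -0.089, and LATS1 with vemurafenib was 0.030. CCN3 with vemurafenib was -0.004 without a filter. With a replicate left out, the ranges were -0.497 to 0.182 for ANKRD1, -0.018 to 0.044 for TEAD1 and -0.140 to 0.011 for TEAD4 (combination relative to vemurafenib), -0.042 to 0.243 for CCN1, -0.109 to 0.205 for TEAD1 and -0.029 to 0.093 for WWTR1 (interaction), -0.187 to 0.126 for TEAD1 with tretinoin, and -0.037 to 0.113 for CCN3 and -0.060 to 0.351 for CCN6 with vemurafenib.

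Same-numbered replicates did not deviate together on average (mean r -0.0312 over 18 pairs, from -0.143 to 0.0872). With 3 replicates per group this does not decide whether the numbers pair samples, and no pairing was assumed in the main fit. The replicate block left 219 falls with tretinoin over all genes in place of 368, and 39 rises and 36 falls for the interaction in place of 64 and 71. Among members it moved only the AJUBA call with tretinoin (adjusted p = 0.07). Over all genes, falls with tretinoin numbered 635 with DESeq2, 804 without a filter, 71 with only the groups compared and 174 with total counts, and rises 234 with only the groups compared. With total counts, falls were 2628 in place of 4400 with vemurafenib and 2916 in place of 4440 with the combination. Between the combination and vemurafenib, only the groups compared gave 584 rises and 685 falls in place of 380 and 369. Interaction calls were 126 and 150 with DESeq2, 389 and 221 without a filter, and 36 and 132 with total counts.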

Other observations

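Genes of the SRF-MRTF program, which drives the actin cytoskeleton and shares targets with YAP and TAZ, are given here as values. Of 13 tested, 5 rose and 6 fell with vemurafenib, where 26.4% of all genes rose and 26.3% fell. The smooth-muscle genes TAGLN (1.41 ± 0.23, log2, SE; adjusted p = 5.4e-05) and MYL9 (1.01 ± 0.12, adjusted p = 1.9e-06) rose. ACTA2 was at 0.74 ± 0.27 (adjusted p = 0.029), which did not pass without DMSO replicate 1 (0.13), DMSO replicate 3 (0.07) or vemurafenib replicate 3 (0.15). TAGLN and ACTA2 had low levels, 0.990 and 1.71 TPM in DMSO and 2.99 and 3.31 TPM with vemurafenib. The LIM protein gene FHL2 (-1.38 ± 0.09, adjusted p = 7.2e-10), tropomyosin TPM1 (-0.78 ± 0.11, adjusted p = 1.4e-05) and SRF itself (-0.71 ± 0.07, adjusted p = 1.2e-07) fell. With tretinoin 2 of 13 fell, where 2.20% of all genes fell and 3.48% rose. The 2 were CNN2, a calponin (-0.40 ± 0.07, adjusted p = 0.0028), and ACTB, cytoplasmic actin (-0.29 ± 0.08, adjusted p = 0.046). ACTB did not pass without DMSO replicate 2, DMSO replicate 3, tretinoin replicate 2 or tretinoin replicate 3 (adjusted p up to 0.22). All values are from edgeR's quasi-likelihood test.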
